A study of Mus musculus with 26 samples.

Results

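The distal-less homeobox genes Dlx1, Dlx2, Dlx3, Dlx4, Dlx5 and Dlx6 were followed across all 10 groups of mouse stem cells (ESCs) and of the neural progenitors (NPCs) made from them. They were taken by gene symbol from both tables of RNA-seq counts and make up 6 of the 55291 genes listed. Dlx3 took the largest share of their counts in every library. It rose on differentiation in the CTCF rescue lines, reaching 52.6 ± 1.88 CPM (SD, n = 2) in NPC-WT and 18.3 ± 1.71 CPM (n = 2) in NPC-ΔZF1, while it stayed at or below 6.76 CPM in all 18 libraries of the E14 lines. CPM are counts divided by the library size, in units of 1000000 counts, and were scaled separately in the rescue and the E14 libraries.

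Dlx proteins are homeodomain transcription factors, that is, proteins that bind DNA through a small folded domain whose last helix lies in the major groove. Dlx1, Dlx2, Dlx5 and Dlx6 are best known from the ventral forebrain, where they drive the differentiation and migration of GABAergic interneurons, and from the pharyngeal arches, where nested Dlx expression sets the identity of the jaw. Dlx3 is known from the epidermis, hair, teeth, bone and the placenta, and, with Dlx5, from the non-neural ectoderm that borders the neural plate and responds to BMP signals. Dlx4 is known from the placenta and the branchial arches. The mammalian genes lie in convergent pairs, and each pair holds a member of the group formed by Dlx1, Dlx4 and Dlx6 and a member of the group formed by Dlx2, Dlx3 and Dlx5.

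The study asked how the first zinc finger (ZF1) of CTCF, which binds RNA, and RNA itself bear on gene expression and chromatin looping. The rescue lines derive from a single clone of E14 mouse ESCs in which both CTCF alleles carry the mAID-eGFP degron, Rosa26 holds OsTIR1 on 1 allele, both Hb9 alleles carry an mCherry reporter, and Tigre holds a doxycycline-inducible Flag-Halo CTCF transgene. The transgene encodes WT CTCF in ESC-WT and NPC-WT and CTCF without ZF1 in ESC-ΔZF1 and NPC-ΔZF1. All 8 rescue libraries, 2 in each of 4 groups, come from cells treated for 24 h with 1 µM 5-Ph-IAA, which degrades the tagged CTCF, and 1 µg/ml doxycycline. The WT and ΔZF1 transgenes are each represented by 1 clone, so clone and protein cannot be told apart. The E14 lines were untreated: parental WT cells, and lines in which both alleles of Podxl or of Grb10 carry eGFP and a polyadenylation signal after the first coding exon (Podxl pA and Grb10 pA), which truncates the RNA. Each of these 6 groups had 3 libraries, as ESCs or as NPCs. The pA lines were grown from sorted single cells, and how many clones their libraries represent is not given. Clone and truncation therefore cannot be told apart. NPCs of both experiments are described as differentiated for 2 days on laminin in N2B27 medium. Whether the 24 h of treatment of the rescue NPCs fell within or after these days is not given. The day of collection may therefore differ between the experiments.

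The rescue libraries held 6425179 to 28730435 counts and the E14 libraries 1907505 to 8845087. A count of 3, taken here as the most that a count of 0 allows, corresponds to 0.106 to 0.459 CPM in the rescue libraries and to 0.338 to 1.55 CPM in the E14 libraries. These floors and all binomial and counting intervals given here cover counting error only. The labels name separate libraries but not separate cultures, so p-values measure the spread between libraries. The summed CPM of 9 ESC markers lay between 5430 and 6240 in the rescue ESCs and between 591 and 780 in the rescue NPCs. The summed CPM of 10 NPC markers was 316 to 356 in ESC-WT and 146 to 195 in NPC-WT, and Hes5 and Fabp7 were at 0 counts in both groups. Of the 7 NPC markers tested, 3 rose from ESC-WT to NPC-WT, Sox1 (1.68 ± 0.19) and Nes (1.56 ± 0.18) among them, and 2 fell, Sox2 among them (-3.18 ± 0.13), a gene that ESCs also express. Sox1, an early neural marker, averaged 6.13 CPM in ESC-WT and 19.4 CPM in NPC-WT, and 4.72 CPM in E14 ESC WT and 79.3 CPM in E14 NPC WT. In these bulk libraries, fewer cells of a type and less RNA per cell cannot be told apart.

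Dlx1 lies at chr2:71528113-71533981 on the plus strand and Dlx2 at chr2:71543408-71546754 on the minus strand of GRCm38 (mm10), in the GENCODE M21 annotation. Dlx3 lies at chr11:95120119-95125296 on the plus strand and Dlx4 at chr11:95140447-95146263 on the minus strand. Dlx6 lies at chr6:6863334-6868568 on the plus strand and Dlx5 at chr6:6877805-6882085 on the minus strand. The members of a pair face each other across 9426 bases (Dlx1 and Dlx2), 15150 bases (Dlx3 and Dlx4) and 9236 bases (Dlx6 and Dlx5). The exons of Dlx1, Dlx4 and Dlx6 share 335, 79 and 104 bases with the antisense genes Dlx1as, Dlx4os and Dlx6os2, which is 6.21%, 2.42% and 4.38% of their merged exons. The counting did not use strand, so reads on these bases cannot be told apart. Dlx2, Dlx3 and Dlx5 share no exon bases with an antisense gene.

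The last 60 bases of the homeobox, which encode the DNA-contacting helix, are shown because they carry what the members have in common and because reads of 50 bases from such stretches could be confused between members. They were read from the GENCODE M21 transcripts, 5′ to 3′ on the strand of the gene, and capitals mark each base that differs from Dlx3.
Dlx3: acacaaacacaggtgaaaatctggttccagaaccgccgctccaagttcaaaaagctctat
Dlx2: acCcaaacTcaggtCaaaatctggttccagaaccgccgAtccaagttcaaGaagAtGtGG
Dlx5: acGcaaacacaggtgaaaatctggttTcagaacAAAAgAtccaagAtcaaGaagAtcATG
Dlx1: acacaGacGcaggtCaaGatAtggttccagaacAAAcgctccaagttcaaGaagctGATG
Dlx4: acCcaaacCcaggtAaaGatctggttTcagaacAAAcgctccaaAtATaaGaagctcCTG
Dlx6: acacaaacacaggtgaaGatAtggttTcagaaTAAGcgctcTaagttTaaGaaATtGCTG

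Dlx2 differed from Dlx3 at 9 of these 60 bases, Dlx1 and Dlx5 at 13, Dlx4 at 15 and Dlx6 at 16. In all 6 genes an exon junction falls after the first 12 of the 60 bases. In Dlx3 the 12 bases are chr11:95121887-95121898 and the other 48 are chr11:95123409-95123456, both in coding exons. Over the whole homeobox of 180 bases, identity ranged from 66.1% between Dlx3 and Dlx6 to 81.7% between Dlx2 and Dlx3, over 15 pairs. The longest stretch that any pair of members shared anywhere in their transcripts was 23 bases. Of the 2558 distinct stretches of 50 bases in Dlx3 transcripts, 0 occur in another member, and the number was also 0 for each of the other members.

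**Figure D1:**
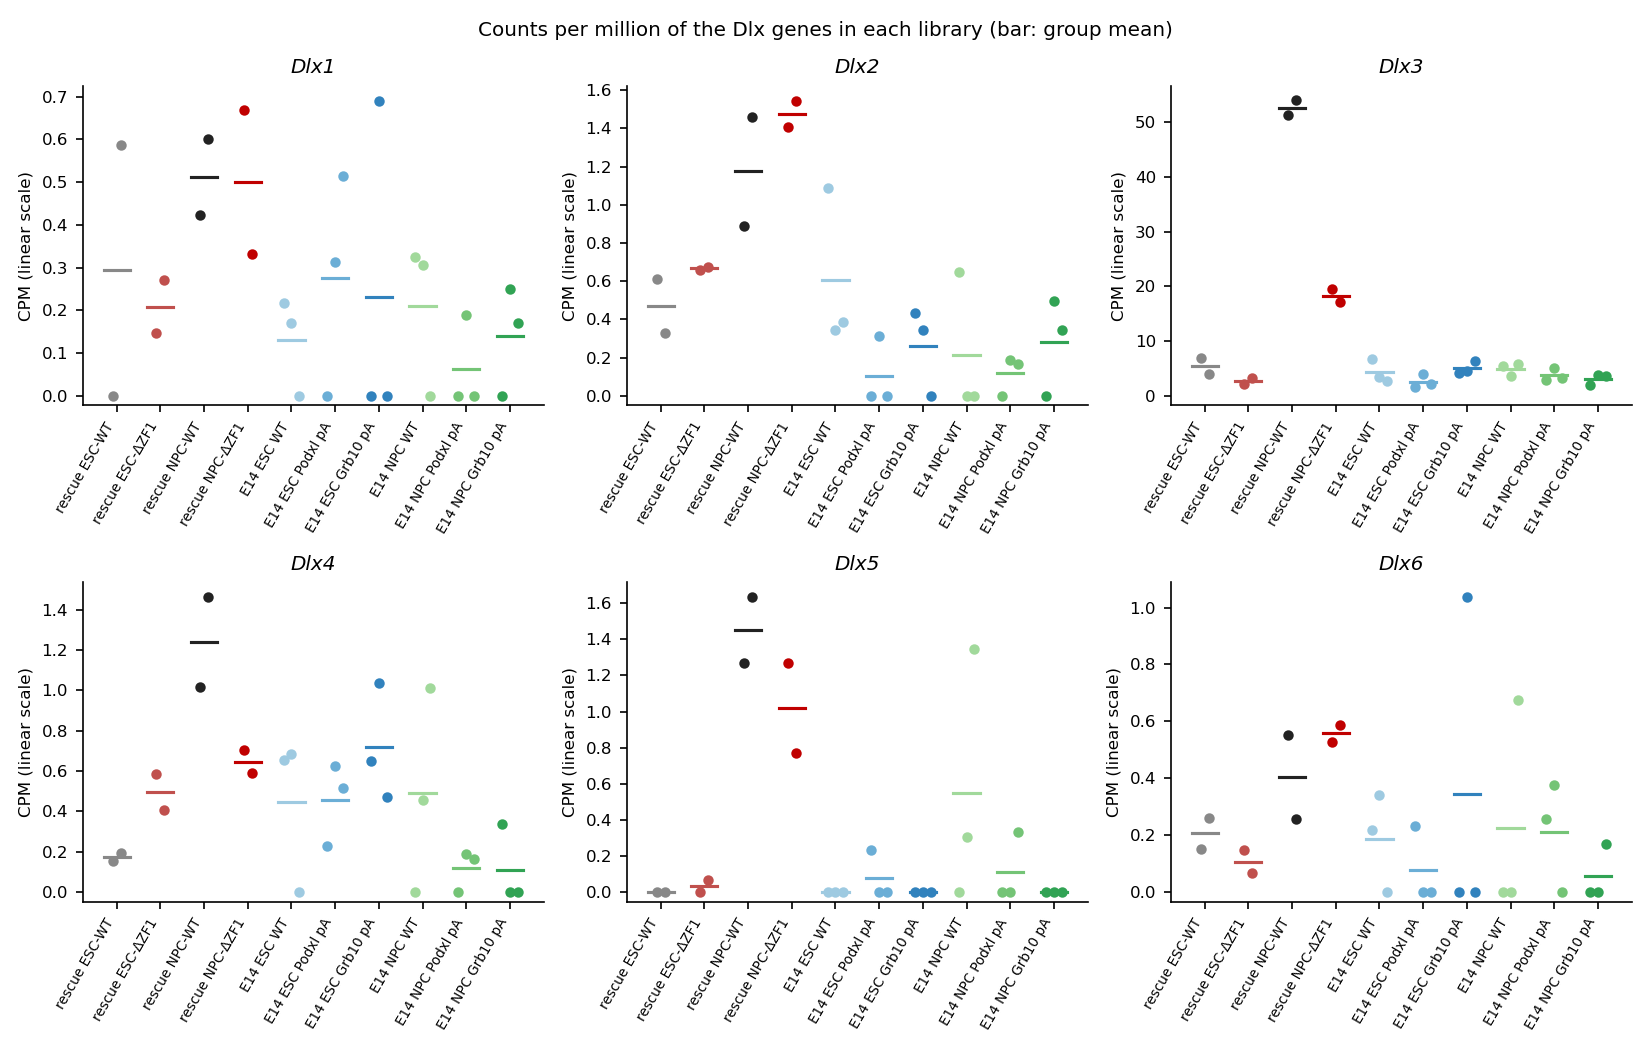
CPM (linear scale, a different range in each panel) of the Dlx genes in each of the 26 libraries. Points are libraries, bars are group means, and in the panel of Dlx3 the 4 rescue NPC libraries, between 17.1 and 54.0 CPM, stand above all others.

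Dlx3 was counted 1211 and 628 times in the NPC-WT libraries, or 51.3 and 54.0 CPM. The NPC-ΔZF1 libraries held 554 and 465 counts, or 19.5 and 17.1 CPM. In ESC-WT the counts were 45 and 61, or 6.88 and 3.98 CPM, and in ESC-ΔZF1 they were 30 and 47, or 2.20 and 3.17 CPM. All 4 rescue NPC libraries thus lay above all 4 rescue ESC libraries, and NPC-WT lay above NPC-ΔZF1 without overlap. Dlx3 made up 92.5% and 90.9% of the counts on the Dlx genes in NPC-WT and 81.0% and 81.7% in NPC-ΔZF1, with exact binomial intervals that did not overlap between these groups (88.5% to 93.9% and 77.8% to 84.8%).

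In edgeR's test of each comparison, 4 of the 6 members, Dlx2, Dlx3, Dlx4 and Dlx5, had enough counts to be tested in the rescue lines. Dlx3 had them in ESCs and NPCs, while Dlx2, Dlx4 and Dlx5, like the antisense gene Dlx4os, reached them only through the NPC libraries, where they were highest, so that their p-values for NPCs against ESCs come from genes selected for being high in NPCs and are given as a description. A gene was called where its adjusted p was 0.05 or less and its log2 fold change at least 0.5 in size. From ESC-WT to NPC-WT, Dlx3 rose 10.3-fold, by a log2 fold change of 3.37 ± 0.24 (SE, edgeR adjusted p = 3.11e-06). From ESC-ΔZF1 to NPC-ΔZF1 it rose 6.77-fold, by 2.76 ± 0.24 (edgeR adjusted p = 1.23e-05). In these comparisons 41.9% and 37.3% of all tested genes were called and 22% and 20.4% were up-regulated. In NPC-ΔZF1 relative to NPC-WT, Dlx3 was 2.87-fold lower, with a log2 fold change of -1.52 ± 0.19 (edgeR adjusted p = 0.000872), where 17.6% of all tested genes were called and 10.5% were down-regulated. In ESC-ΔZF1 relative to ESC-WT its log2 fold change was -0.91, with a 95% interval of -1.56 to -0.26, and it missed the threshold (edgeR adjusted p = 0.119), where 3.61% of all genes were called. This call changed with the tool, since DESeq2 gave -0.91 with an adjusted p of 0.0491. The effect of ΔZF1 in NPCs and that in ESCs differed by -0.61 (95% interval -1.39 to 0.17, edgeR adjusted p = 0.377), so a difference between the cell types was not shown. In this interaction edgeR called 0 of the 4 members tested, against 2.7% of all genes, with 1 member at an unadjusted p under 0.05 and 0 called by DESeq2. Without NPC-WT replicate 1 this difference was -0.70 and passed (edgeR adjusted p = 0.0437).

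**Figure D2:**
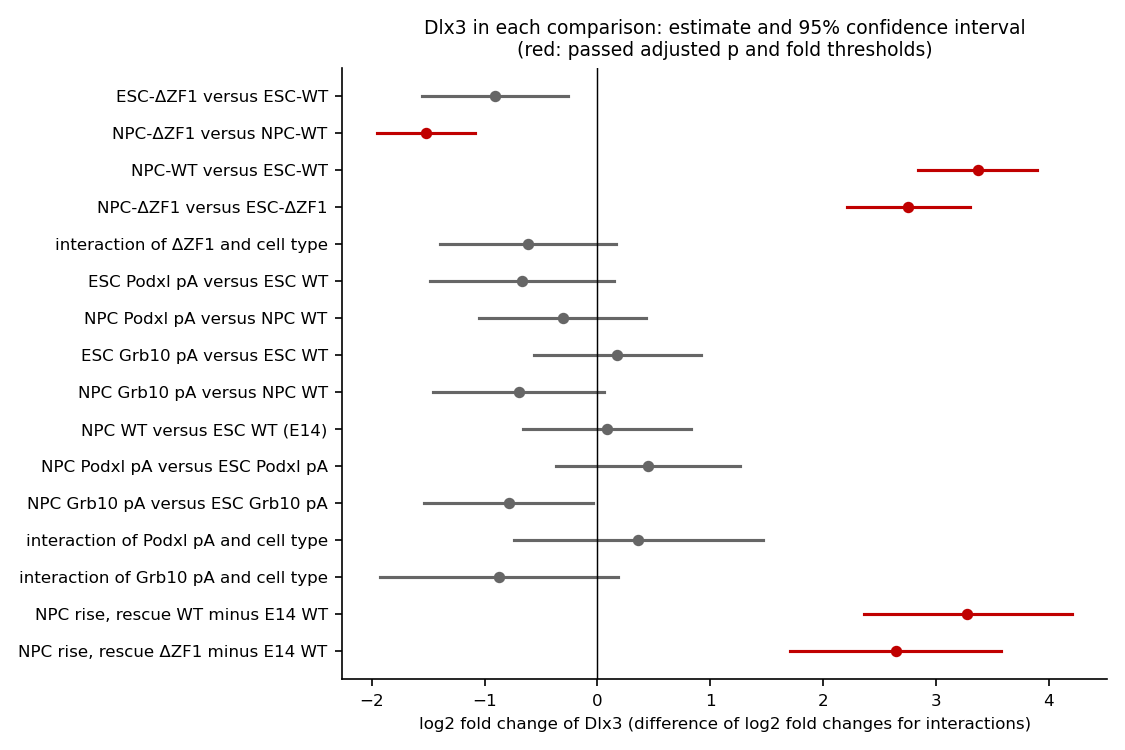
Log2 fold change of Dlx3, or difference of log2 fold changes for the interactions and the bottom pair, with 95% confidence intervals from edgeR. The 3 rescue comparisons in red (-1.52, 3.37 and 2.76) and the contrasts of the NPC rise against E14 WT (3.28 and 2.65) passed the thresholds, and the intervals of the others, in grey, belong to comparisons that did not.

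Dlx5, the partner of Dlx3 in the ectoderm that borders the neural plate, was at 0 counts in both ESC-WT libraries and at 0 and 1 in ESC-ΔZF1. It had 30 and 19 counts in NPC-WT (1.27 and 1.63 CPM) and 36 and 21 in NPC-ΔZF1 (1.27 and 0.772 CPM). All rescue NPC libraries were above all rescue ESC libraries, while NPC-WT and NPC-ΔZF1 came within rounding of each other at 1.27 CPM. The log2 fold change in NPC-ΔZF1 relative to NPC-WT was -0.47 (95% interval -1.44 to 0.50, edgeR adjusted p = 0.461). Against a floor of 3 counts over both ESC-WT libraries, its pooled CPM was at least 10.1-fold higher in NPC-WT, and the lower limit of the counting interval was 7.94 (edgeR adjusted p = 0.00121). In the ΔZF1 line, where Dlx5 had a single count in ESCs, the ratio of pooled CPM was 29.2, with a counting interval of 5.03 to 1170 (edgeR adjusted p = 0.00247). Dlx6, which lies beside Dlx5 and shares its enhancers in the forebrain, had 1 and 4 counts in ESC-WT, 2 and 1 in ESC-ΔZF1, 13 and 3 in NPC-WT and 15 and 16 in NPC-ΔZF1. It did not pass the filter. In the fit without a filter, Dlx6 had a log2 fold change of 2.36 ± 0.87 from ESC-ΔZF1 to NPC-ΔZF1 (edgeR adjusted p = 0.0319), a call that DESeq2 did not make (adjusted p = 0.174), and of 0.99 ± 0.87 from ESC-WT to NPC-WT (edgeR adjusted p = 0.534).

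Dlx2, which acts with Dlx1 early in interneuron progenitors, had 4 and 5 counts in ESC-WT (0.611 and 0.326 CPM) and 9 and 10 in ESC-ΔZF1 (0.661 and 0.675 CPM). Its counts were 21 and 17 in NPC-WT (0.890 and 1.46 CPM) and 40 and 42 in NPC-ΔZF1 (1.41 and 1.55 CPM). The NPC libraries of each line lay above the ESC libraries of that line, and NPC-WT overlapped NPC-ΔZF1. Dlx2 rose by 1.40 ± 0.52 from ESC-WT to NPC-WT (edgeR adjusted p = 0.0488) and by 1.14 ± 0.41 from ESC-ΔZF1 to NPC-ΔZF1 (edgeR adjusted p = 0.0473). DESeq2 gave 1.42 and 1.13 with adjusted p-values of 0.170 and 0.238, so these calls rest on the tool. Leaving out ESC-WT replicate 2 lowered the first value to 0.87 (edgeR adjusted p = 0.390), and leaving out any ΔZF1 library ended the second call (edgeR adjusted p = 0.135 to 0.182). Dlx1 did not pass the filter, with 0 and 9 counts in ESC-WT, 2 and 4 in ESC-ΔZF1, 10 and 7 in NPC-WT and 19 and 9 in NPC-ΔZF1. Its groups overlapped in all these comparisons but that of NPC-ΔZF1 with ESC-ΔZF1, where the fit without a filter gave 1.27 ± 0.75 (edgeR adjusted p = 0.275).

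Dlx4, the neighbour of Dlx3, was close to its floor in ESCs, with 1 and 3 counts in ESC-WT (0.153 and 0.196 CPM) and 8 and 6 in ESC-ΔZF1 (0.587 and 0.405 CPM). It had 24 and 17 counts in NPC-WT (1.02 and 1.46 CPM) and 20 and 16 in NPC-ΔZF1 (0.705 and 0.589 CPM). It was lowest in ESC-WT and highest in NPC-WT, and neither group overlapped its ΔZF1 counterpart. Dlx4 rose by 2.67 ± 0.60 from ESC-WT to NPC-WT (edgeR adjusted p = 0.00443), but without ESC-WT replicate 2 the adjusted p was 0.0610. From ESC-ΔZF1 to NPC-ΔZF1 the log2 fold change was 0.39 ± 0.47 (edgeR adjusted p = 0.537). In NPC-ΔZF1 relative to NPC-WT, Dlx4 had a log2 fold change of -0.88 ± 0.39 (edgeR adjusted p = 0.137), and in ESC-ΔZF1 relative to ESC-WT one of 1.40 ± 0.70 (edgeR adjusted p = 0.335). These effects of opposite sign differed by -2.29 ± 0.80, which did not pass (edgeR adjusted p = 0.171). Dlx4 would not have passed the filter without the NPC-WT libraries. Its p-values in comparisons that use NPC-WT thus come from a gene selected for being high there and are given as a description.

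Dlx4os, the antisense RNA that overlaps the start of Dlx4 at chr11:95145052-95159047, was the only antisense gene of the family to be tested. It had 50 and 22 counts in NPC-WT (2.12 and 1.89 CPM) and 18 and 14 in NPC-ΔZF1 (0.634 and 0.515 CPM), with 2 to 4 counts in each ESC library of the rescue lines. Its groups in NPCs did not overlap, and it fell by 1.80 ± 0.39 on the log2 scale in NPC-ΔZF1 (edgeR adjusted p = 0.0106). Dlx4os passed the filter only through the NPC-WT libraries. This p-value thus comes from a gene selected for being high in NPC-WT and is given as a description. DESeq2 gave a log2 fold change of -1.81 without an adjusted p. Dlx1as gave 7 counts over both ESC-WT libraries and 22 over both NPC-WT libraries, and 8 and 17 over those of the ΔZF1 line. Dlx6os1 gave 4 counts in NPC-WT and 9 in NPC-ΔZF1, and Dlx6os2 gave 0 in all 26 libraries.

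Compared per length, as CPM per kilobase of merged exons (RPKM), Dlx3 was at 20.2 in NPC-WT and 7.03 in NPC-ΔZF1. The next members were Dlx5 in NPC-WT, at 0.642 RPKM, and Dlx2 in NPC-ΔZF1, at 0.518 RPKM. The RPKM of Dlx1, at 0.0950 in NPC-WT, was the lowest of the 6 there. Of the members called in any comparison of the rescue lines, only Dlx3 stood above 2 CPM in any group.

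Chromosome 11, which carries Dlx3 and Dlx4, was lower as a whole in the ΔZF1 line, and the members on it were therefore set against the other genes of the chromosome. Its 1326 tested genes had a median log2 fold change of -0.457 with ΔZF1 in ESCs and of -0.565 in NPCs, against -0.000613 and 0.0734 for chromosomes 2 and 6 in NPC-ΔZF1. In NPC-ΔZF1, Dlx3 differed from the median of chromosome 11 by -0.96, and 73 of the 1326 genes, or 5.51%, lay lower still. With the median of the chromosome taken into the offsets of the ΔZF1 libraries, Dlx3 kept a log2 fold change of -0.96 and passed (edgeR adjusted p = 0.00965). In ESC-ΔZF1, 11.1% of the genes of the chromosome were lower than Dlx3, and with the offsets its value was -0.45 (edgeR adjusted p = 0.532). For Dlx4 in NPC-ΔZF1, 25.6% were lower, and with the offsets its log2 fold change was -0.32 (edgeR adjusted p = 0.598). These values of Dlx4 are a description, since it passed the filter only with the NPC-WT libraries. In ESC-ΔZF1, by contrast, Dlx4 lay above 99.2% of the genes of chromosome 11. That rank rests on 14 counts in ESC-ΔZF1 against 4 in ESC-WT, and Dlx4 was not called (edgeR adjusted p = 0.335). Only 2.71% of them were lower than Dlx4os in NPC-ΔZF1. Dlx2 on chromosome 2 and Dlx5 on chromosome 6 differed from the medians of their chromosomes by 0.40 and -0.55 in NPC-ΔZF1.

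**Figure D3:**
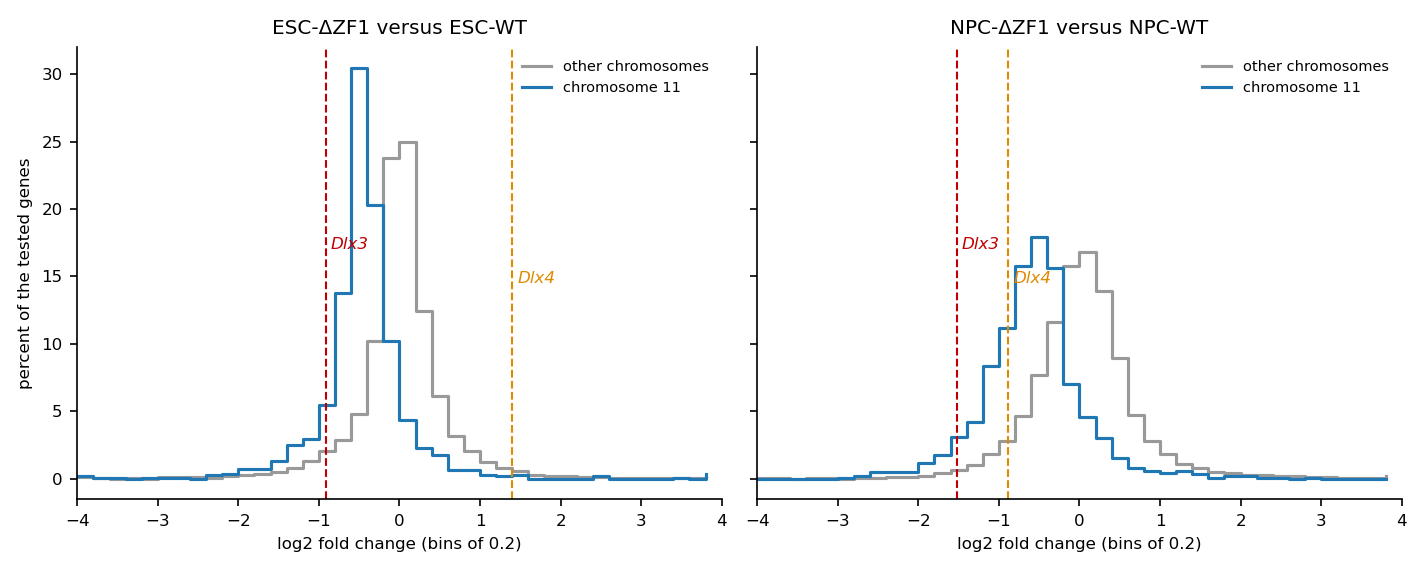
Share of tested genes in each bin of log2 fold change (ΔZF1 relative to WT) for chromosome 11 and for the other chromosomes, in ESCs and NPCs. Values beyond 4 in either direction are drawn in the outermost bins. Dashed lines mark Dlx3 (-0.91 and -1.52) and Dlx4 (1.40 and -0.88), and Dlx3 sits in the lower tail of chromosome 11 in NPCs.

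Neighbours were protein-coding genes within 250 kb of a member. Of 11 neighbours of Dlx3 and Dlx4, 9 were tested and 5 fell in NPC-ΔZF1, where 43.3% of the tested genes of chromosome 11 and 10.5% of all genes tested fell. They were Samd14 (-1.40 ± 0.25) and Ppp1r9b (-1.41 ± 0.17), a spine scaffold protein, Col1a1 (-1.61 ± 0.27), which encodes a chain of type I collagen, the histone acetyltransferase gene Kat7 (-0.90 ± 0.09) and Fam117a (-0.93 ± 0.13). All 5 had an edgeR adjusted p of 0.00454 or less. The nearest tested neighbour, Itga3, 43318 bases from Dlx3, had a log2 fold change of -0.38 and was not called (edgeR adjusted p = 0.0564). In ESC-ΔZF1, edgeR called 0 of these 9. Of the 5 tested neighbours of the members on chromosomes 2 and 6, edgeR called 0 in NPC-ΔZF1, although Itga6 reached an adjusted p of 0.0229 with a log2 fold change of -0.39. The midpoints of 52 tested genes, Dlx3 included, lay within 1 Mb of the start of Dlx3. Of these, 43 had a log2 fold change below 0 in NPC-ΔZF1 and 20 were down-regulated, and 4 were lower than Dlx3. Their median of -0.516 lay close to the -0.565 of the whole chromosome. In ESC-ΔZF1, 43 of the 52 were also below 0 and 8 were down-regulated, where 16.7% of the tested genes of chromosome 11 and 2.33% of all genes tested were. The median of the 52 was -0.436, against -0.457 for the chromosome, so the genes around Dlx3 were no lower by their median than chromosome 11 as a whole in ESCs or NPCs.

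**Figure D4:**
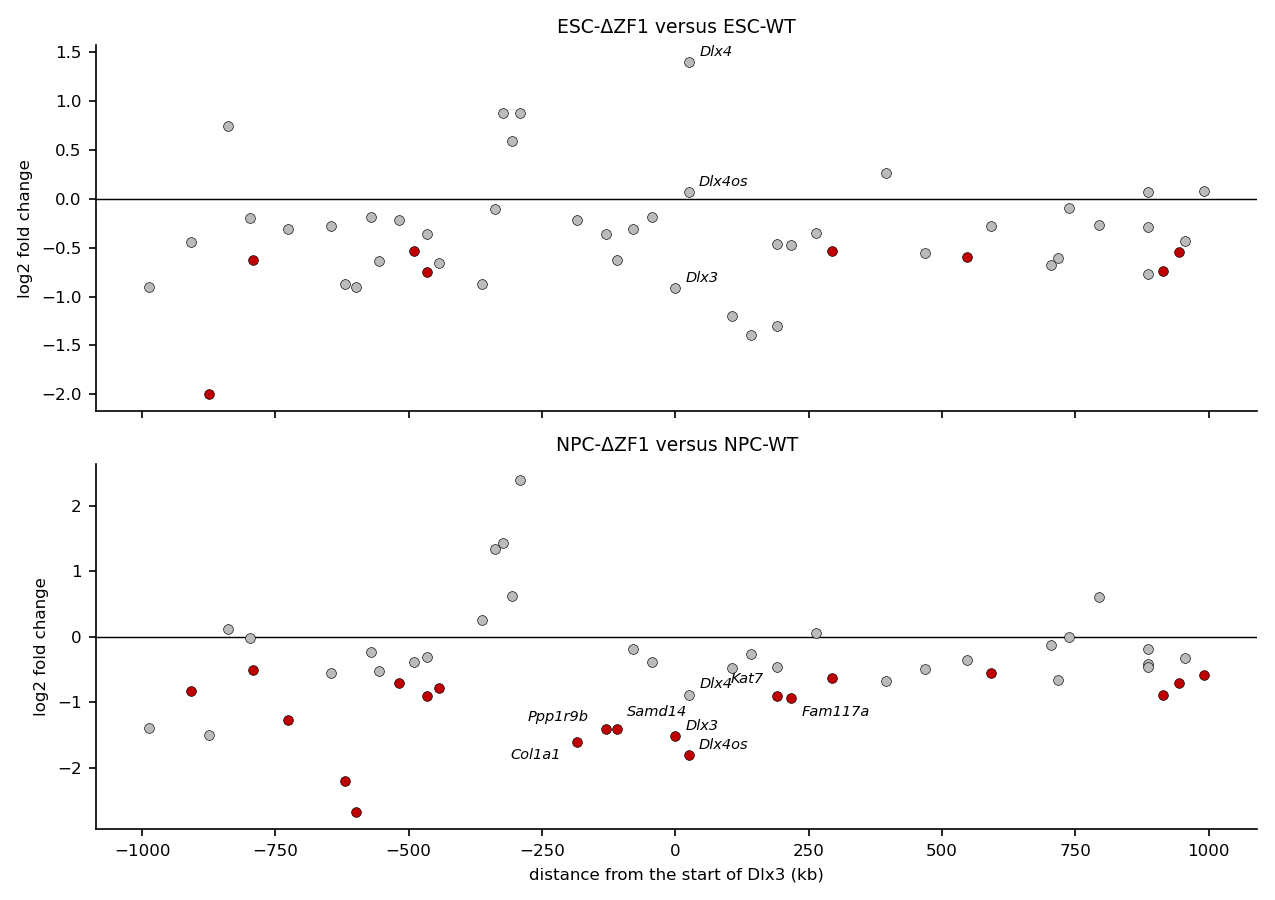
Log2 fold change (ΔZF1 relative to WT) of the 52 tested genes with a midpoint within 1 Mb of the start of Dlx3, in ESCs (top) and NPCs (bottom). The horizontal axis gives the distance of the start of each gene from the start of Dlx3 in kb. Red points were called, 8 in ESCs and 20 in NPCs, and the points of Samd14, Ppp1r9b, Col1a1 and Dlx4os lie near that of Dlx3 in NPCs.

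In the E14 lines Dlx3 was the only member to pass the filter, with 4 to 31 counts per library. The lowest, median and highest values were close in all 6 groups: 2.72, 3.43 and 6.76 CPM in ESC WT and 3.67, 5.50 and 5.73 CPM in NPC WT. In Podxl pA they were 1.62, 2.06 and 3.91 CPM as ESCs and 2.83, 3.33 and 5.08 CPM as NPCs, and in Grb10 pA 4.11, 4.49 and 6.40 CPM as ESCs and 1.91, 3.59 and 3.74 CPM as NPCs. ESC and NPC libraries overlapped in WT and in Podxl pA, while in Grb10 pA all NPC libraries were below all ESC libraries. The log2 fold change of Dlx3 from ESC to NPC was 0.08 in WT (95% interval -0.66 to 0.83, edgeR adjusted p = 0.873), 0.45 in Podxl pA (-0.37 to 1.26, adjusted p = 0.375) and -0.79 in Grb10 pA (-1.54 to -0.04, adjusted p = 0.0754). The shares of all genes called in these comparisons were 32.8%, 31.8% and 34.6%. Relative to WT, Podxl pA gave -0.67 in ESCs and -0.31 in NPCs, and Grb10 pA gave 0.18 in ESCs and -0.70 in NPCs. EdgeR called 0 of these, 0 reached an unadjusted p under 0.05, and DESeq2 also called 0, where edgeR called 0.339%, 0.55%, 9.09% and 16.5% of all genes. Between NPCs and ESCs, the change relative to WT differed by 0.36 for Podxl pA (edgeR adjusted p = 0.871) and by -0.87 for Grb10 pA (adjusted p = 0.334). In these interactions 0.098% and 5.9% of all genes were called.

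Ordered by mean CPM of Dlx3, the groups ran from NPC-WT and NPC-ΔZF1 to ESC-WT of the rescue lines (5.43 ± 2.05, n = 2), then E14 ESC Grb10 pA (5.00 ± 1.23, n = 3), E14 NPC WT (4.97 ± 1.13, n = 3), E14 ESC WT (4.30 ± 2.16, n = 3), E14 NPC Podxl pA (3.75 ± 1.18, n = 3), E14 NPC Grb10 pA (3.08 ± 1.01, n = 3), rescue ESC-ΔZF1 (2.69 ± 0.69, n = 2) and E14 ESC Podxl pA (2.53 ± 1.21, n = 3). From rescue ESC-WT on, each overlapped the next. The other members had at most 5 counts in any E14 library. Dlx5 was at 0 counts in 14 of the 18 libraries and reached 1.35 CPM, in an NPC WT library. Dlx6 was at 0 in 10 of the 18, Dlx1 in 8, Dlx2 in 7 and Dlx4 in 5. In the fit without a filter, the lowest adjusted p that edgeR gave to one of these low members in an E14 comparison was 0.0913, for Dlx5 in NPC Grb10 pA relative to NPC WT, so differences between E14 groups were not detectable for them at this depth.

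The rise of Dlx3 on differentiation was compared between the lines in a model of all 26 libraries, chosen after the values had been seen. The rise was larger in the rescue WT line than in parental E14 by 3.28 ± 0.45 on the log2 scale (95% interval 2.36 to 4.21, edgeR adjusted p = 1.50e-06), and larger in the rescue ΔZF1 line than in parental E14 by 2.65 ± 0.46 (1.71 to 3.58, adjusted p = 7.02e-05). Of 14742 genes tested in this model, 35.2% were called in the first contrast, 17.4% upward and 17.8% downward, and 24.5% in the second. Both contrasts share the E14 libraries. Rescue and E14 lines differ, among other things, in the degron, OsTIR1, the Hb9 reporter, the transgene and the cloning. They also differ in the treatment, the sequencing depth and the experiment. None of these can be told apart.

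Genes that act where Dlx genes act were followed as lists. Of 24 genes of the non-neural ectoderm and the neural plate border, 20 were tested in the rescue lines and 16 rose and 3 fell from ESC-WT to NPC-WT, with a median log2 fold change of 2.45 against 0.0111 over all genes, of which 22% rose and 19.9% fell. The leading genes were the GATA factor genes Gata2 (4.19 ± 0.16) and Gata3 (4.40 ± 0.21) and the epithelial factor gene Grhl2 (3.31 ± 0.17). Of 14 epidermal and epithelial genes, 13 were tested and 12 rose, with a median of 2.66, led by the keratin genes Krt18 (4.96 ± 0.38) and Krt19 (4.98 ± 0.30) and by Wnt6 (4.92 ± 0.28). Of 11 trophoblast and placental genes, 8 were tested, 6 rose and 2 fell, with a median of 3.88. They were led by Hand1 (5.14 ± 0.48), Plac1 (4.72 ± 0.57) and Gcm1 (4.23 ± 0.35), a regulator of syncytiotrophoblast. Tpbpa and Prl3d1, markers of later trophoblast, were at 0 counts in all groups.

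In the same comparison 9 of 21 tested BMP pathway genes rose and 2 fell. Among them were the ligand gene Bmp2 (5.00 ± 0.41) and the target genes Id2 (3.40 ± 0.33) and Id3 (2.39 ± 0.24). Of 11 tested genes of the ventral forebrain and GABAergic interneurons, out of 20, 5 rose and 1 fell, with Zeb2 (2.80 ± 0.30) and Nrp2 (1.62 ± 0.12) leading. Of 9 tested genes of the jaw and skeleton, out of 15, 7 rose and 1 fell, led by the endothelin gene Edn1 (2.50 ± 0.25).

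In NPC-ΔZF1 relative to NPC-WT, where 7.19% of all genes rose and 10.5% fell, 8 of the 13 tested epidermal and epithelial genes fell, with a median of -0.96 against -0.00262 over all genes. Krt8 (-1.77 ± 0.25), Krt18 (-1.58 ± 0.32) and Krt19 (-1.86 ± 0.23, on chromosome 11 like Dlx3) led them. The border list was mixed: 7 of 20 fell and 4 rose, with a median of -0.17. Gata2 fell by 1.21 ± 0.13, while the homeobox genes Msx1 (1.73 ± 0.21) and Gbx2 (1.36 ± 0.22) rose. The trophoblast list was mixed too, with 3 of 8 lower, including Esx1 (-1.89 ± 0.15), a placental homeobox gene, and Hand1 (-1.15 ± 0.32, also on chromosome 11), and 2 higher, including Eomes (1.15 ± 0.16). Of the BMP pathway genes 3 of 21 fell, Bmp7 among them (-0.66 ± 0.20). Of the ventral forebrain genes 4 of 11 rose, with a median of 0.81, led by the zinc finger gene Sp8 (2.53 ± 0.25). Of the jaw and skeleton genes 3 of 9 fell, the homeobox gene Prrx2 (-0.75 ± 0.23) among them, and 1 rose. The epidermal and epithelial genes summed to 4460 to 6000 CPM in NPC-WT and 2230 to 2340 CPM in NPC-ΔZF1, and the border genes to 743 to 785 and 515 to 516 CPM.

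Markers of other cell types also moved from NPC-WT to NPC-ΔZF1, where 7.19% of all genes rose and 10.5% fell. All 11 tested extraembryonic endoderm markers of 12 rose in NPC-ΔZF1, with a median of 2.95, among them Sox17 (3.16 ± 0.22) and Cubn (3.61 ± 0.45), and their summed level was 783 to 1000 CPM in NPC-WT and 5420 to 5580 CPM in NPC-ΔZF1. Apoa1 was at 0 counts in NPC-WT. In NPC-ΔZF1, 3 of 7 tested NPC markers were higher, including Sox1 (1.05 ± 0.16) and Sox2 (0.82 ± 0.13), and Nes was lower (-0.85 ± 0.17). Of the ESC markers 2 of 9 fell, Klf2 among them (-1.16 ± 0.18). Of 7 mesoderm markers 1 rose and 2 fell, and of 7 neural crest markers 2 rose. The part of these genes in the change of Dlx3 was not tested.

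In parental E14, where Dlx3 was not called, the lists were counted in the same way, but not over the same tested genes. The E14 libraries held a median of 4472121 counts, against 15019046 in the rescue lines. Fewer border genes (14 against 20) and epidermal and epithelial genes (11 against 13) were tested. From E14 ESC WT to NPC WT, 6 of 14 tested border genes rose and 3 fell (median 0.62, with 16.5% and 16.3% of all genes up and down), and 6 of 11 tested epidermal and epithelial genes rose (median 1.27). Of 8 tested trophoblast genes 6 rose and 1 fell (median 2.44), and the summed level of all 11 was 110 to 123 CPM in E14 ESC WT, 70.9 to 92.7 CPM in E14 NPC WT, where Tead4 fell by 2.55 ± 0.14, and 375 to 484 CPM in rescue NPC-WT. Grhl2 (3.88 ± 0.23), Krt18 (1.74 ± 0.14), Epcam (1.94 ± 0.10) and Cldn6 (2.23 ± 0.12) rose there. The summed border genes lay at 330 to 360 CPM in E14 NPC WT and the summed epidermal and epithelial genes at 1240 to 1280 CPM, both below the rescue NPC-WT libraries. Extraembryonic endoderm markers summed to 982 to 1290 CPM in E14 NPC WT, against 783 to 1000 CPM in rescue NPC-WT.

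**Figure D5:**
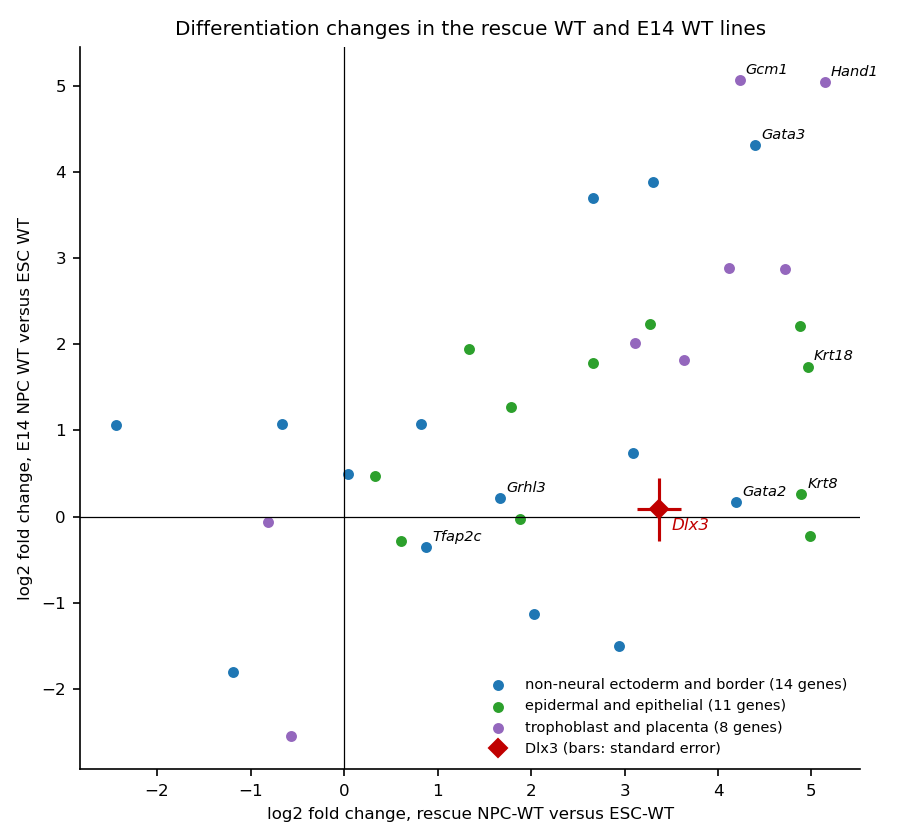
Log2 fold change from ESC to NPC in the rescue WT line (horizontal) and in parental E14 (vertical) for the listed genes tested in both and for Dlx3 (red diamond, bars show the SE). Dlx3 lies at 3.37 and 0.08, near Gata2 and Krt8, while Gata3, Gcm1 and Hand1 rose in both lines.

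By the correlation of log2 CPM, averaged over the 8 rescue and the 18 E14 libraries, the genes most like Dlx3 were Metap1d (0.938 and 0.771), Grhl3 (0.930 and 0.671), an epidermal factor gene, and AU040320 (0.976 and 0.604). Metap1d lies 2919 bases from Dlx1 on chromosome 2. For the members tested in the 8 rescue libraries alone, the closest genes were Hdac10, Gm26811 and Hes6 for Dlx2 (0.994, 0.986 and 0.983), Ttc7b, Mtss2 and Tnnc1 for Dlx4 (0.987, 0.978 and 0.976) and Cpne2, Sdc3 and Slc5a5 for Dlx5 (0.996, 0.995 and 0.993). These correlations were the highest of many computed over few libraries that share groups, and are given as a description.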

How the data were processed

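The authors aligned paired reads of 50 bases from rRNA-depleted RNA to mm10 with STAR and counted them on genes with featureCounts, without strand, through the sns pipeline. The gene annotation of the counting and the versions are not given in the sources used here. The deposited values are counts, whole numbers without normalization. The table of the truncation lines held 3 columns that match no sample and were not used.

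Each table was fitted with edgeR 4.0.16 (R 4.3.3) using TMM factors, filterByExpr, 1 coefficient per group, the quasi-likelihood F test and Benjamini-Hochberg adjustment over all genes tested (16641 for the rescue lines, 13268 for the truncation lines). Calls needed adjusted p of 0.05 or less with an absolute log2 fold change of 0.5 or more. CPM were computed here from the TMM-adjusted library size. The script was tested on simulated data. Of 55291 symbols, 53292 (96.4%) were found in GENCODE M21 on GRCm38, which gave positions, lengths and sequences. DESeq2 1.42.0 and ashr 2.2.63 were alternatives, beside RLE normalization, other filters, a term for replicates, the chromosome 11 offset, a stricter threshold and leaving out each library. A model of all 26 libraries was added after the data were seen.

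All members were described, with overlapping genes, called neighbours within 250 kb, from each list at most the 3 called genes of largest change (mean normalized count 50 or more), and the 3 genes most correlated with a member (log2 CPM, prior count 2). Itga3, Itga6, Apoa1, Hes5 and Fabp7, Tpbpa and Prl3d1 and genes labelled in a figure were named after their values were seen. The members and lists were chosen with earlier results of these data known. A gene that this rule would name is not reported here.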

Additional observations from a re-analysis of the deposited data

Results flagged for a closer look

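The rise of Dlx3 from ESCs to NPCs differed between the lines. In the model of all 26 libraries it was larger in the rescue WT line than in parental E14 by 3.28 on the log2 scale (edgeR adjusted p = 1.50e-06), and larger in the rescue ΔZF1 line than in parental E14 by 2.65 (edgeR adjusted p = 7.02e-05). All 4 rescue NPC libraries held more Dlx3 than every E14 NPC library. Leaving out each of the 10 libraries of the 4 WT groups in turn gave 2.81 to 3.62, with an adjusted p of at most 9.77e-05. Groups of 2 or 3 libraries are too small for a test of single outlying libraries.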

How the results depend on the processing

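Across 631 values computed under alternatives, most kept their direction and their side of the threshold. Dlx3 kept its call in NPC-ΔZF1 relative to NPC-WT under all alternatives run, with log2 fold changes of -1.53 to -0.957, the latter with the chromosome 11 offset, and of -1.63 to -1.43 without single libraries. Its rises in NPC-WT and NPC-ΔZF1 were called under all alternatives, at 2.93 to 3.72 and 2.51 to 3.01 without single libraries. In ESC-ΔZF1 relative to ESC-WT, Dlx3 became called under DESeq2 (-0.908), without the filter (-0.892) and with only the groups compared (-0.908), which takes the number of members called from 0 to 1, but not without single libraries (-1.33 to -0.542). Requiring 10 counts in every library left only Dlx3 to test, so that 1 member was called in place of 4 (NPC-WT relative to ESC-WT) and of 3 (NPC-ΔZF1 relative to ESC-ΔZF1). In the main fit 41.9% and 37.3% of all tested genes were called in these comparisons. The calls of Dlx2, Dlx4 and Dlx5 are a description, as these genes passed the filter only through the NPC libraries. Without ESC-WT replicate 2, 2 members were called in NPC-WT relative to ESC-WT, and the number ranged from 2 to 4 over the libraries left out. For the interaction of ΔZF1 and cell type, leaving out libraries gave 0 to 1 called members and -0.986 to -0.201 for Dlx3, called only without NPC-WT replicate 1 (-0.701), and for Dlx2 (-0.655 to 0.243) the sign turned without ESC-WT replicate 2 (0.243) and without NPC-WT replicate 2 (0.0257). In the E14 lines, leaving out libraries turned the sign of the uncalled values of Dlx3 in ESC Grb10 pA relative to ESC WT (-0.0581 to 0.653, and -0.0417), in NPC WT relative to ESC WT (-0.133 to 0.576, and -0.0618, -0.0111 and -0.0204) and in the interaction of Podxl pA and cell type (-0.114 to 1.01). The cause was not tested. All 60 mean levels moved by 1 SD or less under RLE. This was fixed in advance for Dlx5 in the groups where all its counts were 0. In 18 values the call of a rise was lost, 8 for Dlx2 in the WT line, 9 for Dlx2 in the ΔZF1 line and 1 for Dlx4, without ESC-WT replicate 2.

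Replicate numbers are shared between groups, but same-numbered libraries did not deviate together (correlations of -0.137 to 0.132 over 12 pairs in the rescue lines and of -0.209 to 0.154 over 45 pairs in the E14 lines). With 2 libraries per rescue group, deviations within a group mirror each other, so the 12 rescue correlations are not independent. The counts thus gave no sign of pairing by number, but cannot show whether equal numbers mark a shared culture or batch. With a replicate block, Dlx3 was at -1.52 in NPC-ΔZF1 relative to NPC-WT (edgeR adjusted p = 0.00222), and Dlx2 missed the threshold in its rises (1.44 and 1.14, adjusted p of 0.0590 and 0.0615).

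Depth limits all members but Dlx3 in every group: the others had at most 42 counts in any library. It also limits Dlx3 outside the rescue NPCs, with 30 to 61 counts in the rescue ESC libraries and 4 to 31 in the E14 libraries.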
